A study of Bos taurus with 18 samples.

Results

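The pituitary of Angus cows was compared between weaning and sexual maturity with 6 of the 18 RNA-sequencing libraries of the series: 3 cows at 6 months, which were just weaned, and 3 different cows at 18 months, which were sexually mature. The other libraries were the pituitary of 3 cows at 30 months, after their first calf, and the hypothalamus of the same 9 cows. None of the cows was in heat when the tissue was taken. The labels name no genotype or treatment that sets the groups apart, all libraries were made from poly(A) RNA after TRIzol extraction, and the labels give nothing on feeding or season. The gene models described are those whose normalised counts did not overlap between the ages and still did not overlap when 18-month replicate 3 was left out. Leaving out a library cannot by itself create overlap. The second condition therefore acts only through the recomputed scaling and filter. It removed 43 models and does not show that the others are independent of that library. They were 2012 models that were higher at 18 months and 2434 that were lower, of 18555 that passed the filter on low counts and 27376 in the table.

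The anterior pituitary releases growth hormone, prolactin, corticotropin, thyrotropin and the gonadotropins, each from its own cell type, under the control of hypothalamic peptides that reach it through the portal vessels. Around puberty the pulses of gonadotropin-releasing hormone from the hypothalamus become more frequent, and the gonadotrophs answer with more luteinizing hormone, which brings the ovary into cycles. Growth hormone secretion is high in the growing calf, and the mix and size of the hormone cells change as the animal matures. In a bulk sample of the gland, fewer cells of a type and less RNA per cell cannot be told apart.

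The gene models carry numbers in place of gene symbols, and the files do not pair these numbers with names. The hormone genes and the markers of pituitary cell types could therefore not be looked up, and the tissue label was not checked against them. The models are described below by length, chromosome, count level and reads at single-nucleotide polymorphism (SNP) sites. At most 2 model identifiers are given in each direction.

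The 6 libraries held between 28724861 and 37960458 counts. Both tissues came from each cow, and the genotypes of the 9 pairs of libraries from 1 cow were 99.3% to 99.7% the same at sites read at least 20 times, against 50.1% to 66.7% in the other 144 pairs. The test of pituitary against hypothalamus over all ages called 0 of 19707 models (edgeR's quasi-likelihood test, adjusted p under 0.05), with 1010 at an unadjusted p under 0.05. The fit had no term for the cow, so the pairing of the tissues within a cow was not used. The unadjusted number is near the share expected with no difference between the tissues, but an unpaired test cannot show that they were alike. The tissue of the pituitary libraries, as of the hypothalamus libraries, therefore rests on the labels alone, and the cause was not tested.

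One library at 18 months stood apart. In 18-month replicate 3, gene models under 2000 bases took 25.5% of the counts, against 11.2% and 12.2% in replicates 1 and 2 and 9.63%, 10.05% and 9.81% in the 6-month libraries. The reads at SNP sites in 3′ untranslated regions (3′ UTRs) were 39.2% of all site reads in that library, 23.9% and 24.2% in the other 18-month libraries and 20.98%, 22.5% and 22.7% at 6 months. Its reads at SNP sites came to 9.83% of its counts, while the other 5 libraries lay between 17.6% and 19.9%. These measures move with the age groups, since all 3 libraries at 18 months lay above all 3 at 6 months for short models and for 3′ UTR sites. The two-sided exact permutation test gave p = 0.1 for each, the smallest that 3 against 3 allows, and an adjusted p of 0.167 over 5 measures. Intron sites fell on the other side, at 16.9% ± 5.45 at 18 months against 21.6% ± 1.07 at 6 months (SD, n = 3 each, exact permutation p = 0.1). Coding sites (25.5% ± 3.95 against 26.5% ± 0.113, SD, n = 3 each, exact permutation p = 0.9) and the share of counts in new genes (3.02% ± 0.236 against 2.84% ± 0.313, SD, n = 3 each, exact permutation p = 0.5) overlapped between the ages. The part of these library differences in the results below was not tested. The numbers of models, their lengths and the shares whose site reads followed are given with and without 18-month replicate 3, and the gaps, the described models and the other tissue and age with all libraries.

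The values compared are CPM, counts scaled to the size of the library after TMM normalisation. In the fit of all 9 pituitary libraries, the higher models had a median log2 fold change of 1.104 between 6 and 18 months, and the lower models a median of −0.83. Over all 18555 models tested the median was 0.09. The higher models were 10.8% of the models tested and the lower models 13.1%. Without 18-month replicate 3, which leaves 2 libraries against 3, 19.8% of 19091 models were higher without overlap and 20.2% were lower. With no age difference, 3 against 3 libraries lie apart in either direction in a share of 0.1 of the arrangements. That share is larger for 2 against 3. The percentages with and without replicate 3 therefore cannot be compared in size. Since absence of overlap selected the higher and lower models, their fold changes describe them and carry no test.

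Per model, edgeR's quasi-likelihood test with Benjamini-Hochberg adjustment called 1 of the 18555 models (0.00539%), with 2392 at an unadjusted p under 0.05. Of the higher models, 1206 had an unadjusted p under 0.05, and of the lower models 776. DESeq2 called 335 models, 1.85% of the 18133 to which it gave an adjusted p, and 211 of them were among the higher models and 95 among the lower. The higher and lower models were chosen for standing apart in the same libraries, so the numbers among them are no support. The spread between cows was wide, with a common biological coefficient of variation of 58.6%.

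The single model that edgeR called rose. No model was called (0) with the 6 libraries of the 2 ages alone, without 6-month replicate 3 or without any one of the 30-month libraries. The model is 1523 bases long and lies on chromosome 4, and it had 0.104, 0 and 0.0313 CPM in the 6-month libraries and 41.9, 41.2 and 22.7 CPM at 18 months. Its log2 fold change of 9.40 had a standard error of 0.72 (edgeR adjusted p = 0.00911). In the 6-month libraries, 3 counts are worth 0.0783 to 0.0975 CPM, so its 6-month values lie at the limit of counting and the size of this fold depends on the prior count of the fit. Reads at its 5 coding SNP sites did not follow: as RPM (the site reads of a model scaled to all site reads of its library, with no TMM factor), they were 91.95, 88.9 and 98.8 at 6 months and 94.4, 102 and 72.9 at 18 months. Unscaled and summed over the sites, these were 693, 528 and 617 reads at 6 months and 527, 529 and 243 at 18 months. Reads over its coding sites were therefore plentiful in the 6-month libraries, where it had almost no counts. Its counts thus separated the ages and its site reads did not, and the cause was not tested. Its pituitary level at 30 months was 37.4, 39.6 and 45.3 CPM. The hypothalamus held libraries at either level, with 21.9, 0 and 1.55 CPM in the hypothalamus at 6 months, 0.0533, 36.6 and 41.7 at 18 months and 0, 27.2 and 0.0656 at 30 months.

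The distance between the ages was small for most of the models without overlap. The gap, taken as the library nearest the other age over the nearest library of that age, with 0.1 CPM added to both, had a median of 1.15-fold among the higher models and 1.14-fold among the lower. A gap of at least 1.5-fold was found for 274 higher and 253 lower models, at least 2-fold for 84 and 82, and at least 4-fold for 9 and 16. Just inside the threshold, where the ratio of those 2 libraries (nothing added) was above 1 and below 1.1, lay 730 higher and 906 lower models. Just outside it, at ratios from 0.9 to 1, lay 1094 and 1163.

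The 18-month libraries did not contribute equally. Replicate 3 was the highest library in 1072 of the 2012 higher models (53.3%), replicate 2 in 844 (41.9%) and replicate 1 in 96 (4.77%). Among the 2434 lower models, replicate 3 alone was the lowest in 1431 (58.8%), replicate 2 alone in 842 (34.6%) and replicate 1 alone in 93 (3.82%), and 68 models were tied. Relative to the 6-month mean, the median log2 difference of the higher models (CPM with 0.1 added) was 0.47, 0.91 and 1.23 in replicates 1, 2 and 3, and that of the lower models was −0.38, −0.82 and −1.24. Replicate 1 therefore lay closest to the 6-month libraries in both directions. Leaving out replicate 3 lost 43 of the models without overlap, which are not among those described. Among the models that pass the filter with all libraries, it added 1711 higher models, with a median length of 5500 bases, and 1378 lower models, with a median of 4655.5 bases. A smaller group by itself leaves more models without overlap, so these numbers do not measure replicate 3 alone.

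The models that were higher at 18 months were short, and those that were lower were long. The median length was 2746 bases for the higher models (quartiles 1612 and 4871.25) and 8306.5 bases for the lower models (4543.75 and 13503.5), beside 4760 bases over all models tested (2498.5 and 8935.5). Of models under 1000 bases, 24.5% were higher and 6.71% lower. Of models of 16000 bases or more, 2.42% were higher and 29.9% lower. Without 18-month replicate 3 the same classes were 27.2% higher and 10.6% lower among the shortest, and 9.05% higher and 36.5% lower among the longest. The median lengths without that library were 3788 bases for higher and 6762 bases for lower models, so the difference in length was smaller without it.

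**Figure D1:**
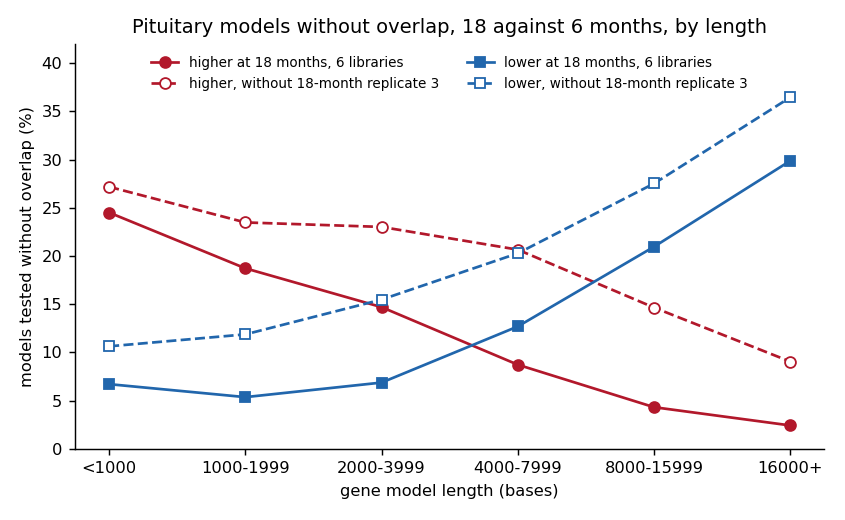
Percent of pituitary gene models tested that were higher (red circles) or lower (blue squares) at 18 than at 6 months without overlap, by gene model length in bases, with all 6 libraries (solid) and without 18-month replicate 3 (dashed, open). The higher share falls from 24.5% to 2.42% and the lower share rises from 6.71% to 29.9% between the shortest and the longest class, and the dashed lines run the same way from 27.2% to 9.05% and from 10.6% to 36.5%.

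The trend with length was present in each 18-month library taken singly. Of models under 1000 bases, 43.6% in replicate 1, 45.4% in replicate 2 and 61.3% in replicate 3 lay above all 3 libraries at 6 months. Of models of 16000 bases or more, 16.7%, 23.1% and 14% did. The shares below all 3 libraries at 6 months ran from 17.9% to 45.2% in replicate 1, from 29.4% to 57.2% in replicate 2 and from 24.9% to 68.8% in replicate 3 between the same classes.

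At 30 months the libraries differed from each other in this respect. Set against the same 6-month libraries, 30-month replicate 2 ran from 43.8% above among the shortest models to 20.7% among the longest, close to 18-month replicate 2. In 30-month replicate 1 these shares were 21.7% and 25.6%, and in replicate 3 they were 30.1% and 22.01%. The shares below ran from 32.1% to 24.5% in replicate 1, from 25.1% to 50.7% in replicate 2 and from 24.05% to 35.6% in replicate 3. A trend of this kind was thus present in 30-month replicate 2 and smaller in replicate 3. In replicate 1 the shortest and the longest class lay in the reverse order, both above and below.

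**Figure D2:**
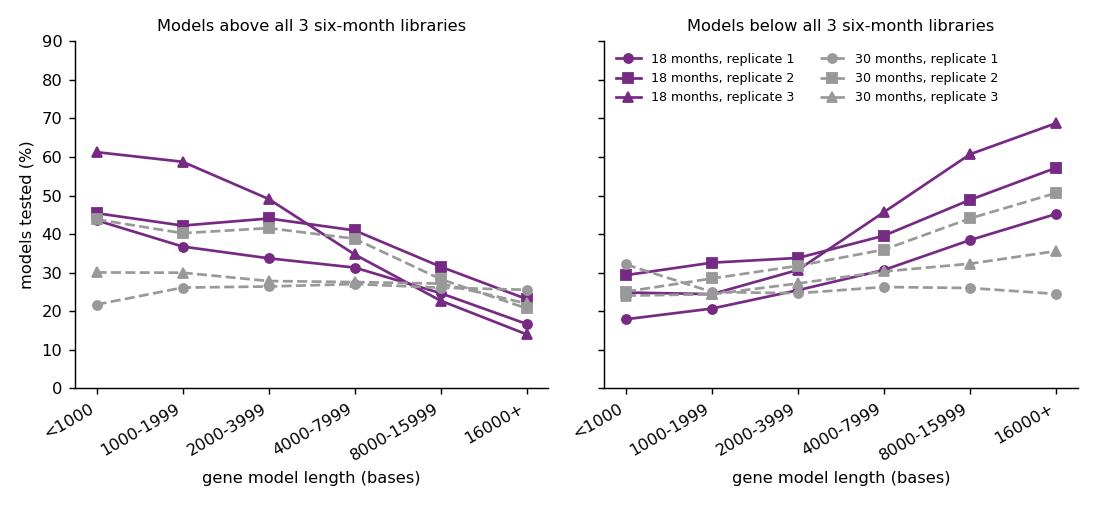
Percent of gene models tested in which a single pituitary library lay above (left) or below (right) all 3 six-month libraries, by gene model length in bases, for the 3 libraries at 18 months (purple, solid) and the 3 at 30 months (grey, dashed). All 3 libraries at 18 months fall from left to right in the left panel, from between 43.6% and 61.3% to between 14% and 23.1%, and 30-month replicate 1 stays between 21.7% and 27.05%.

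The count of a model depends on its length, so length was also read within classes of mean CPM, which is not scaled by length. Among models with at least 100 CPM, 45.4% of the 335 under 2000 bases were higher at 18 months and 1.19% were lower. In that class, 2.71% of the 1069 models of 8000 bases or more were higher and 41.9% were lower. Among models of 10 to 100 CPM the shares were 31.3% higher and 4.04% lower under 2000 bases, and 4.07% higher and 20.6% lower from 8000 bases. Among models of under 1 CPM the shares were 6.73% and 7.22% for the short models and 1.43% and 14.3% for the 70 long ones. The difference between short and long models was therefore widest among the models with most reads. Without 18-month replicate 3 the shares at 100 CPM or more were 46.9% higher and 10.7% lower under 2000 bases, and 9.82% higher and 50.4% lower from 8000 bases. Across models, Pearson's correlation of log2 count with log2 length was 0.576, 0.567 and 0.547 in the 6-month libraries and 0.542, 0.499 and 0.334 in the 18-month libraries, as a description over models that share each library's depth.

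In the hypothalamus of the same cows, 8.58% of 18763 models were higher at 18 months without overlap and 7.7% were lower. Their median lengths were 4167 bases (higher) and 6090.5 bases (lower), against 4720 bases over all models tested there. Of models under 1000 bases, 8.47% were higher and 5.61% lower, and of models of 16000 bases or more, 4.98% were higher and 9.97% lower. Short and long models lay on the same sides as in the pituitary, with a smaller difference between them. The difference between the tissues in this trend was not tested.

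New genes, which are models that the authors added to the annotation, made up a smaller share of the models without overlap than of all models tested. They were 155 of the 2012 higher models (7.70%) and 303 of the 2434 lower models (12.4%), against 2704 of all models tested (14.6%). New genes had few reads, with a median of 1.19 mean CPM, against 26.7 CPM for annotated models. Within classes of mean CPM the order was not the same in both directions. At 1 to 10 CPM, 6.19% of 1163 new genes were higher and 10.9% lower, while 12.6% of 3396 annotated models were higher and 5.86% lower. At 10 to 100 CPM, 5.82% of 292 new genes were higher and 20.9% lower, and 11.9% of 8603 annotated models were higher and 13.9% lower. New genes in these classes were longer, with medians of 5845 and 18595.5 bases against 3536.5 and 6360 bases for annotated models. At 100 CPM or more the lower share ran the other way, with 10.5% of 38 new genes higher and 15.8% lower, against 12.5% and 26.1% of 2520 annotated models. At 1 to 100 CPM the new genes thus had smaller higher shares and larger lower shares together with their greater length, and level, length and being new were not separated by a test. Without 18-month replicate 3 the shares at 10 to 100 CPM were 11.99% higher and 28.1% lower for new genes, and 21.5% and 22.2% for annotated models.

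The chromosome of a model was taken from the SNP sites that the SNP table gives to it, and it was known for 14359 of the 18555 models tested (77.4%), for 1681 higher models and for 1895 lower ones. Only 100 of the new genes had such a site. Models with a chromosome were higher in 11.7% and lower in 13.2% of cases, and the 4196 models without one in 7.89% and 12.8%.

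Chromosome 29 had the highest share of higher models. Of its 376 models tested, 82 were higher at 18 months (21.8%, 95% Wilson interval 17.9% to 26.3%, which covers counting error only and treats the models as independent) and 40 were lower (10.6%). The share that the length classes alone would give was 11.8%. Its share was above that of all models tested in each length class, though the shortest and the longest class held only 18 and 19 of its models. Examples are 27.3% against 14.7% at 2000 to 4000 bases and 14.04% against 4.32% at 8000 to 16000 bases. In the single 18-month libraries, which make up this share, 40.4%, 46.3% and 55.3% of these models lay above all 3 libraries at 6 months in replicates 1, 2 and 3, beside 30.6%, 38.7% and 38.6% over all models. On chromosome 3 the share in replicate 2 was 46.9%. Without replicate 3 the share of higher models on chromosome 29 was 29.5%, beside 19.8% over all models. Reads at SNP sites were higher at 18 months without overlap in 61 of 352 chromosome 29 models (17.3%), beside 11% of all models with site reads. In the hypothalamus, 12.7% of the models of this chromosome were higher at 18 months, beside 8.58% overall. It was not the highest there, since chromosomes 27 and 25 had 13.8% and 13.2%. On the coordinates of the SNP table, the higher models were most numerous between 40 and 45 Mb, with 35 of 138 models, and made up 15 of 41 models between 50 and 55 Mb. The chromosome was singled out after its values were seen, and no test of it against the others was made.

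Chromosome 24 had the largest share of lower models, 44 of 199 (22.1%, Wilson interval 16.9% to 28.4%), and only 13 higher ones (6.53%). Its models were long, with a median of 6657 bases, and the length classes alone gave 15.7% lower. Chromosome 23, with a median of 4023 bases, had the smallest lower share, 31 of 420 (7.38%, Wilson interval 5.25% to 10.3%), where length alone gave 12.1%. On the X chromosome, 11.3% of 540 models were higher and 15.7% lower. The lower shares without 18-month replicate 3 were 29.2% on chromosome 24, 14.7% on chromosome 23 and 22.8% on the X chromosome, beside 20.2% over all models.

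**Figure D3:**
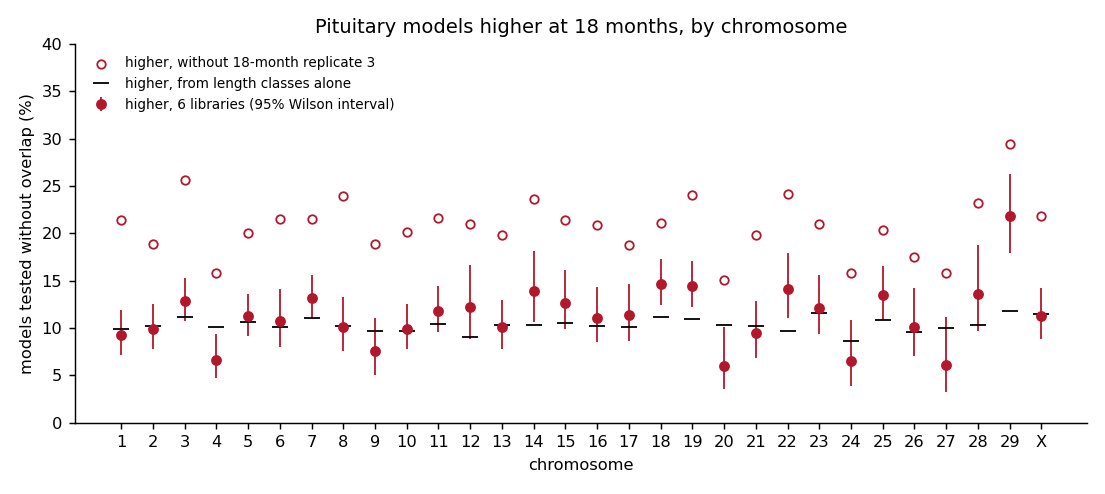
Percent of gene models tested on each chromosome that were higher in the pituitary at 18 than at 6 months without overlap, with 95% Wilson intervals (filled points), without 18-month replicate 3 (open points), and as the length classes alone would give (black bars). Chromosome 29, at 21.8% with all libraries and 29.5% without replicate 3, is the highest of the filled and of the open points.

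The models with the widest gap were described in each direction, among annotated models with at least 5 CPM in the higher group and at least 1 SNP site; 1467 higher and 1759 lower models were open to this choice. The single model called by edgeR was left out of it. All 20 models had an unadjusted p under 0.05 in edgeR's quasi-likelihood test and an adjusted p of 0.38. DESeq2 gave an adjusted p under 0.05 to the 10 higher models and to 9 of the 10 lower ones. The gap that chose the 20 models comes from the same libraries, so small p-values were largely fixed in advance and are no support. The 10 higher models were 604 to 8530 bases long (median 2421) and the 10 lower ones 1739 to 26573 bases (median 5692.5). Replicate 2 was the highest library at 18 months in 8 of the 10 higher models. Among the 10 lower ones it alone was the lowest in 4, and 2 were tied.

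The widest gap among the higher models was that of gene16978, 4293 bases long, with SNP sites on chromosome 14 from 45495889 to 45554335. It had 9.53, 10.7 and 11.6 CPM at 6 months and 104, 187 and 137 CPM at 18 months. The gap was 8.86-fold, and the fitted log2 fold change was 3.75, with a standard error of 0.72 (edgeR adjusted p = 0.38). At 30 months it had 72.5, 16.5 and 9.55 CPM, so that its libraries ran from the 6-month level to below that of 18 months. In the hypothalamus of the 6-month cows it had 189, 95.6 and 231 CPM, and 77.3, 125 and 13.5 CPM at 18 months, lower on average where the pituitary was higher (interaction log2 difference 5.004, edgeR adjusted p = 0.364). Reads at its 100 SNP sites, 81 of them in introns, overlapped between the ages, with 67.3, 109 and 95.9 RPM at 6 months and 98.7, 259 and 74.96 at 18 months.

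The second, gene9781, is 8530 bases long with sites on chromosome 7 from 70852972 to 70870615. Its CPM was 0.861, 1.23 and 0.376 at 6 months and 8.26, 7.88 and 8.64 at 18 months, the tightest 18-month group of the 10. At 30 months it had 0.51, 11.7 and 10.5 CPM. The hypothalamus also held libraries at both levels, with 8.69, 8.91 and 5.56 CPM at 6 months and 0.187, 10.4 and 0.357 CPM at 18 months. Its fitted log2 fold change in the pituitary was 3.32, with a standard error of 0.98 (edgeR adjusted p = 0.38). Its site reads were level, at 27.7, 27.9 and 20.97 RPM at 6 months and 24.4, 23.5 and 24.3 at 18 months. For gene9781, as for the model that edgeR called, the counts stood apart between the ages while the site reads overlapped.

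The other 8 higher models lay on chromosomes 18, 28, 5 (2 models), 12, X, 6 and 1. A model of 652 bases on chromosome 28 had 0.313, 1.23 and 0.626 CPM at 6 months, 5.20, 43.4 and 12.5 CPM at 18 months and 0.434, 2.59 and 0.437 CPM at 30 months. Its site reads followed, with 1.06, 4.54 and 1.60 RPM at 6 months and 18.8, 117 and 54.9 at 18 months. A model of 604 bases on chromosome 1 had 1.91, 2.24 and 5.10 CPM at 6 months and 16.5, 62.6 and 36.2 CPM at 18 months, and its site reads were 1.59, 2.69 and 5.12 against 16.7, 55.3 and 52.2 RPM. At 30 months both models were near the 6-month level, at 0.434 to 2.59 CPM and 1.31 to 6.71 CPM. A model of 2909 bases on chromosome 5 had 4.15, 4.81 and 1.79 CPM at 6 months and 18.96, 105 and 68.8 CPM at 18 months, with no site read at 6 months and 13, 51 and 2 site reads at 18 months. The reads at SNP sites followed the counts in 6 of the 9 higher models with at least 20 site reads. These include the model of 2909 bases, whose 7 sites all lie in introns or beside the gene.

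The widest gap among the lower models was that of gene931, 4602 bases long, with sites on chromosome 1 from 127035769 to 127048034. It had 2.24, 1.27 and 72.1 CPM at 6 months and 0 counts in all 3 libraries at 18 months, where 3 counts would be 0.101 to 0.104 CPM. The 6-month group rests on replicate 3 for its mean, and so for passing the limit of 5 CPM. The gap of 13.7-fold sets 1.27 CPM against 0 with 0.1 CPM added to both, so its size depends on the added value. The same spread was seen at 30 months with 71.2, 1.52 and 1.50 CPM. DESeq2 gave it no adjusted p, and edgeR's adjusted p was 0.38. Its site reads did not overlap either, with 75.4, 59.7 and 83.2 RPM at 6 months and 43.5, 8.67 and 0.90 at 18 months, but 15 of its 20 sites lie beside the gene and none is coding. Most of the site reads of this model therefore come from outside the sequence that its counts cover.

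The second, gene14753, is 19713 bases long with sites on chromosome 12 from 12290635 to 12411333. It had 73.7, 60.0 and 59.5 CPM at 6 months, 10.4, 12.3 and 1.78 CPM at 18 months and 40.1, 61.7 and 22.6 CPM at 30 months. Its fitted log2 fold change was −2.98, with a standard error of 0.67 (edgeR adjusted p = 0.38, DESeq2 adjusted p = 0.00134). Its site reads were 49.5, 38.5 and 40.2 RPM at 6 months and 23.8, 24.3 and 3.60 at 18 months. Counts and site reads were both lowest in 18-month replicate 3, and the groups did not overlap in either.

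The other 8 lower models lay on chromosomes 8, 18 (2 models), 19, 24, 3, 6 and 28. A model of 12849 bases on chromosome 8 had 103, 116 and 122 CPM at 6 months, 21.6, 21.8 and 3.38 CPM at 18 months and 134, 56.3 and 138 CPM at 30 months, and its site reads were 84.4, 87.7 and 101 RPM and then 73.3, 47.99 and 28.5 RPM. A model of 26573 bases on chromosome 3 had 35.6, 49.5 and 120 CPM at 6 months and an even 7.85, 8.85 and 7.80 CPM at 18 months. A model of 6243 bases on chromosome 18 had 5.77, 6.95 and 5.67 CPM at 6 months, 0.336, 1.25 and 1.39 CPM at 18 months and 2.07, 0.669 and 1.59 CPM at 30 months, so that it lay below the 6-month libraries at both later ages. The reads at SNP sites followed the counts in 9 of the 10 lower models, with sites in introns and beside the gene included. The model of 26573 bases had 54 sites in introns, 12 beside the gene and none in coding sequence or UTRs. Of the 60 sites of gene14753, 34 lay in introns and 22 beside the gene. A model of 17032 bases on chromosome 18 rested on 1 coding site with 2 to 9 reads per library.

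**Figure D4:**
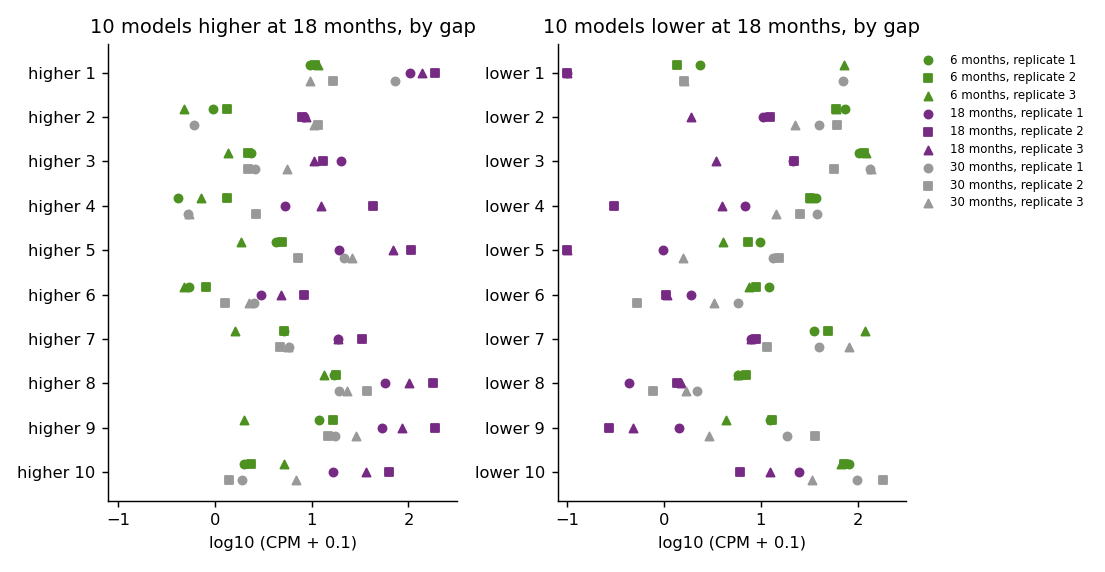
CPM on a log10 scale, with 0.1 added, of the 10 higher (left) and 10 lower (right) gene models with the widest gap, in each pituitary library at 6 (green), 18 (purple) and 30 months (grey). The purple points stand apart from the green ones by the choice of the models, while the grey points lie with either group, as in the first higher model (gene16978) at 72.5, 16.5 and 9.55 CPM and the first lower model (gene931) at 71.2, 1.52 and 1.50 CPM.

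The SNP table gives the number of reads over each site in each library, a measure from the same libraries that does not use the gene counts. It does depend on which sites that table gives to a model. These include sites in introns and beside the gene, which can lie outside the sequence that the counts cover. Site reads were summed per model and divided by the site reads of the library, and were taken to follow the counts when the ages did not overlap in the same direction. They come from the same libraries, so they test the counting and not the cows. Of the 1584 higher models with at least 20 site reads, 600 followed (37.9%) and 22 went the opposite way without overlap. Over all 13476 models with site reads, 11% were higher at 18 months in this measure. Of the 1848 lower models with site reads, 682 followed (36.9%) and 14 went the opposite way, where 10.3% of all models were lower. Without 18-month replicate 3 the shares were 52.9% against 21.6% for the higher models and 45.02% against 15.1% for the lower. With site reads scaled by the gene counts and TMM factors in place of the site reads of the library, 24.1% of the higher models followed (all models 5.54%) and 51.6% of the lower (all models 16.5%).

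By the direction of the mean alone, 86.0% of the higher and 87.9% of the lower models moved the same way in site reads as in counts, where 50.01% and 49.99% of all models did. The share that followed was larger where the gap in counts was wider. Among the higher models it was 30.5% of 988 with a gap under 1.2-fold, 47.6% of 420 at 1.2 to 1.5, 51.97% of 127 at 1.5 to 2 and 67.3% of 49 at 2-fold or more. Among the lower models it was 29.4% of 1260, 50.6% of 453, 60.95% of 105 and 63.3% of 30 in these classes.

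The share that followed differed with the kind of site, and not in the same order for the 2 directions. At coding sites, 34.6% of 1058 higher models and 44.5% of 1463 lower models followed, with 7.77% and 12.6% over all models. At 3′ UTR sites, 46.8% of 862 higher models followed but only 14.3% of 1214 lower models, with 17.4% and 3.86% over all models. At intron sites, 8.99% of 1168 higher and 38.8% of 1603 lower models followed, with 2.95% and 17.3% over all models. Without 18-month replicate 3, the coding sites gave 58.4% and 45.96% (all models 21.2% and 14.5%), the 3′ UTR sites 53.6% and 23.0% (23.9% and 8.30%) and the intron sites 33.1% and 42.6% (13.6% and 20.03%). The share of site reads in 3′ UTRs was highest in 18-month replicate 3, as given above, and its part in these differences was not tested.

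For models with at least 100 reads at coding and UTR sites, the sizes could be set side by side. The 1184 higher models had a median log2 difference of 0.86 in counts and 0.81 in site reads, and the 1610 lower models −0.84 in counts and −0.66 in site reads. Over all models these medians were −0.03 and 0.09. Of 448 higher models at least 2-fold apart in counts, 279 were also at least 2-fold apart in site reads, and 42 (9.38%) had site reads within 0.25 on the log2 scale or on the other side. Of 631 lower models at least 2-fold apart, 356 were so in site reads as well, and 92 (14.6%) were level or opposite. These numbers use all 3 libraries at 18 months and are not given without 18-month replicate 3. Some of the level models differed in counts mainly in that library. A lower model of 17178 bases on chromosome 25 had 210, 213 and 213 CPM at 6 months and 180, 193 and 2.86 CPM at 18 months. Others, as the models below, did not rest on it alone.

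The level or opposite models include some with many reads, of which the most abundant in each direction is given here, chosen after its values were seen. A higher model of 6799 bases on chromosome 24 had 1749, 1395 and 1767 CPM at 6 months and 6799, 16723 and 3630 CPM at 18 months, while its coding and UTR sites had 631, 741 and 819 RPM at 6 months and 605, 267 and 1134 at 18 months. A lower model of 14716 bases on chromosome 10 had 1348, 1341 and 1687 CPM at 6 months and 1079, 345 and 357 CPM at 18 months, while its sites had 15.1, 23.1 and 18.2 RPM and then 16.1, 41.4 and 65.1. The deepest site held 770 to 859 reads in these libraries, where the model with most counts had 96691 to 496780. The part of this limit on depth in such models was not tested.

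**Figure D5:**
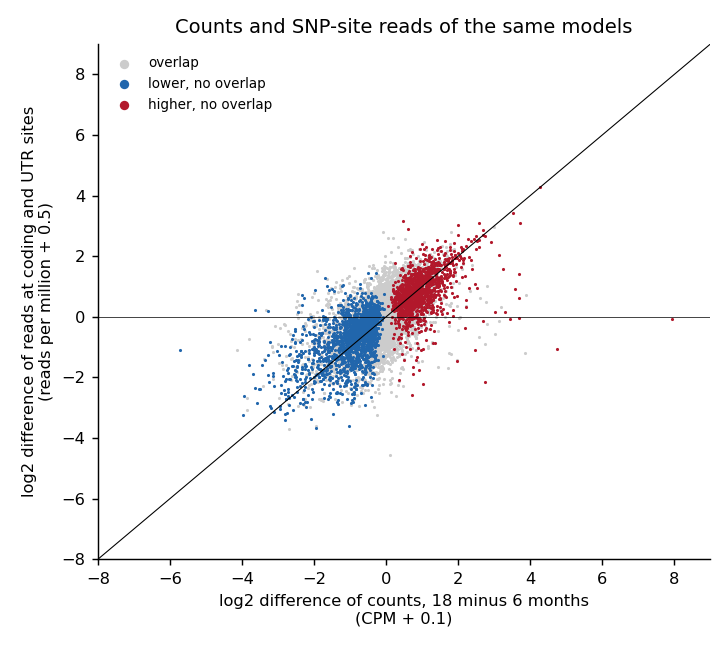
Log2 difference between 18 and 6 months in reads at coding and UTR SNP sites (RPM, 0.5 added) against that in counts (CPM, 0.1 added) for each pituitary gene model with at least 100 such reads. Red and blue points are models higher and lower without overlap in counts, grey points all others, and the diagonal marks equal differences. The median higher model lies at 0.86 in counts and 0.81 in site reads, the median lower model at −0.84 and −0.66, and a spread of points near the horizontal line at 0 differ in counts but not in site reads.

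The models were chosen for standing apart at 18 months, which enlarges their difference at that age, so the values at 30 months are a description. Against the same 6-month libraries, which both comparisons share, the higher models had a median log2 difference (CPM with 0.1 added) of 0.97 at 18 months and 0.27 at 30 months, and the lower models −0.97 and −0.24. The median over the higher models of the mean CPM was 14.7 at 6 months, 30.3 at 18 months and 18.5 at 30 months, and over the lower models 59.3, 33.8 and 51.4. The 30-month libraries were not alike: the higher models lay 0.10, 0.50 and 0.20 above the 6-month mean in replicates 1, 2 and 3, and the lower models at −0.09, −0.40 and −0.19. Replicate 2 at 30 months was thus as far from the 6-month mean as replicate 1 at 18 months.

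In the hypothalamus of the same cows, the models chosen in the pituitary had no common direction. Of the higher models, 1991 were tested there, and 6.08% were higher at 18 months without overlap and 3.67% lower, below the shares over all hypothalamus models given above. Of 2409 lower models, 4.65% were higher and 5.35% lower. The median log2 difference in the hypothalamus was −0.04 for the higher and 0.04 for the lower models. The test of whether the age difference itself differed between the tissues called 0 of 19707 models (0.0%, edgeR, adjusted p under 0.05), with 2432 at an unadjusted p under 0.05, and DESeq2 called 208. The smallest edgeR adjusted p of this test was 0.0826 among all higher and lower models. Among the 10 with the widest gap in each direction it was 0.364. By edgeR, no single model therefore passed the test of a difference between the tissues in the age effect.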

How the data were processed

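Poly(A) RNA of 9 cows was sequenced from pituitary and hypothalamus; HISAT2, StringTie, GATK and DESeq appear in the submitters' processing notes, and their versions and the build are not given in the sources used here. The authors deposited raw read counts and gene model lengths per the file headers, FPKM of the same models (scaled by length and mapped fragments), and genotypes and read depth at 992284 SNP sites. Replicates were numbered in accession order. The labels describe 3 cows per age, so p-values measure the spread between cows.

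Counts of the 9 pituitary libraries were filtered by group, scaled with TMM factors and fitted by age with edgeR 4.0.16 (R 4.3.3; 6 residual degrees of freedom, Benjamini-Hochberg adjusted p under 0.05). Each contrast was 18 minus 6 months. Standard errors are the fold change over the square root of F. Scripts were tested on simulated data. Chromosome numbers were read from the NCBI accession names of the UMD cattle assembly in the SNP table, and coordinates are as that table gives them. Neither DESeq2 1.42.0 nor limma 3.58.1 was the main test; these, RLE factors, no filter, FPKM, gap size, kinds of site and leaving out each library were alternatives.

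The models named are the 2 with the widest gap in each direction, of 10 described, among annotated models without overlap with at least 5 CPM and 1 SNP site. None of the identifiers matched the RefSeq table of another assembly. The models, lists and tests were chosen with earlier results of these data known.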

Additional observations from a re-analysis of the deposited data

How the results depend on the processing

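The count of models called by edgeR at 18 against 6 months was 1 with RLE factors and without a filter, 0 with the 6 libraries alone, 3 with limma-trend on log2 FPKM and 335 with DESeq2; leaving out 1 library gave 0 to 40, with 40 without 18-month replicate 1, 3 without 18-month replicate 2 and 0 without 6-month replicate 3 or any 30-month library. For the age effect against the hypothalamus, DESeq2 gave 208, the fit with each animal as a replicate block gave 0 (2860 at an unadjusted p under 0.05), and leaving out 1 library gave 0 to 33, with 33 without 18-month pituitary replicate 1 and 1 without 18-month pituitary replicate 3. No paired analysis was possible for 18 against 6 months in the pituitary because the ages are different cows.

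The higher models numbered 84 with a gap of at least 2-fold and 2471 to 3786 when 1 library was left out (3193, 3087 and 3786 without 18-month replicates 1, 2 and 3). The lower models numbered 82 and 2957 to 3960 (3960, 3649 and 3851). The median length of the higher models was 2482.5 bases with CPM by the library total, 2108 with the 2-fold gap and 2817 to 3788 without 1 library. That of the lower models was 7970.5 bases by the library total, 7871 without a filter, 5531 with the 2-fold gap, 7641 with FPKM and 6762 to 8015 without 1 library. In all of these the higher models were shorter than the lower ones. With FPKM in place of CPM, 1591 of the 2012 higher and 1866 of the 2434 lower models were the same.

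The share of higher and lower models whose site reads followed was 34.6% and 44.5% at coding sites, 46.8% and 14.3% at 3′ UTR sites, 42.4% and 30.6% without intron and intergenic sites, 24.1% and 51.6% with site reads scaled by the gene counts, 86.0% and 87.9% by the direction of the mean, 52.9% and 45.02% without 18-month replicate 3, and 45.7% and 33.95% at coding and UTR sites, a setting chosen after seeing the data. The cause of these differences was not tested. The 20 described models kept their direction in 278 of 278 alternatives. These alternatives use the libraries whose gap selected the models, so the direction was largely fixed in advance and is no support. Of the 20, 19 passed the threshold with DESeq2 and 1 without 18-month replicate 1, which is no support for the same reason. With 3 cows per age, an exact test of a single measure cannot go below p = 0.1.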
